A study of Homo sapiens with 12 samples.

Results

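The histone genes of the HIST1 to HIST4 clusters are the subject here, and 32 of them had enough counts to be followed in 2 prostate cancer cell lines treated with pentamidine. They were taken from the deposited count table as every gene whose name began with HIST1H, HIST2H, HIST3H or HIST4H and that had 10 or more counts in at least 3 of the 12 samples. The table held 75 such names among 32077 genes. By class, the genes kept were 3 of 7 for the linker histone H1, 6 of 16 for H2A, 15 of 23 for H2B, 3 of 14 for H3 and 5 of 15 for H4. The other 43 names had at most 15 counts in any sample, and the 32 genes held 98.4% of all counts on histone names. Of the 32, 30 are annotated as protein coding (GENCODE 29); HIST2H2BD is annotated as a transcribed pseudogene, and HIST2H2BC was not matched to that annotation. The study asked how pentamidine, an antiprotozoal diamidine that binds the minor groove of AT-rich DNA, acts on prostate cancer cells. It used PC3 and DU145, established androgen-independent lines that the labels give as wild type. Each line was kept for 48 h with 2.5 µM pentamidine or with its vehicle, sterile distilled water, and each of the 4 groups had 3 samples. The RNA was captured with oligo(dT) and sequenced in bulk. The labels do not say whether the 3 samples of a group were separate cultures, so the p-values measure the spread between these samples, which may be technical.

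Histones package DNA: H2A, H2B, H3 and H4 form the core of the nucleosome and H1 binds the linker between nucleosomes. Most of their genes lie in clusters and are transcribed in S phase, when new chromatin is made. Their mRNAs usually end in a conserved stem-loop in place of a poly(A) tail, and the stem-loop is bound by SLBP. Some of the same genes also give a longer polyadenylated mRNA, for example when cells leave the cycle. Oligo(dT) capture recovers mRNA with a poly(A) tail, so the levels given here are those of whatever polyadenylated or carried-over histone RNA entered the libraries, and not those of total histone mRNA.

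The stem-loop is shown first, because it is the element that sets these mRNAs apart from the ones that oligo(dT) capture is made for. It was found in the annotated transcripts of 23 of the 32 genes (GENCODE 29, build GRCh38). The loop is in capitals and the 2 arms of the stem are in lower case.
HIST1H2AC, HIST2H2BE and 10 others: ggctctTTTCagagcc
HIST1H2BC, HIST1H2BD, HIST1H2BF and HIST1H3G: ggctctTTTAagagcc
HIST1H4E, HIST1H4H and HIST4H4: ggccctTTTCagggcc
HIST1H2AG and HIST2H2BD: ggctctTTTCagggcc
HIST1H4I: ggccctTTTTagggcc
HIST1H3E: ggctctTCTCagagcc
The 4 H4 genes with a stem-loop shared their stem, and that stem was not found in the H2A, H2B and H3 genes. Of the other 9 genes, HIST2H2BC was not read, because its identifier in the deposited data was not matched to the annotation. The rest, among them HIST1H1C and HIST1H2BK, had no such sequence in their annotated exons, which for several of them stop with the coding sequence. In the 23 genes the annotation continued for at least 39 bases after the stem-loop, and it continued for over 300 bases in 18 of them. The longest such stretch was 1917 bases, in HIST3H2BB, apart from 2976 bases in HIST2H2BD, whose annotated coordinates differ from those of the deposited table. A poly(A) signal stood within 50 bases of an annotated transcript end in 17 of the 31 genes matched to the annotation. Among the 43 names with few counts the same was true of 8. The annotated exons of 18 genes spanned over 1000 bases.

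Promoters are shown for 5 genes that lead their class in level or in response, from RefSeq (GRCh38.p14), as the 250 bases before the start site, written 5′ to 3′ on the strand of the gene. Capitals mark the CCAAT box, the TATA box spelled TATAAA and the octamer ATTTGCAT on either strand; where TATAAA and its reverse complement overlap, the run is longer.
HIST1H1C, chr6:26056471-26056720, minus strand: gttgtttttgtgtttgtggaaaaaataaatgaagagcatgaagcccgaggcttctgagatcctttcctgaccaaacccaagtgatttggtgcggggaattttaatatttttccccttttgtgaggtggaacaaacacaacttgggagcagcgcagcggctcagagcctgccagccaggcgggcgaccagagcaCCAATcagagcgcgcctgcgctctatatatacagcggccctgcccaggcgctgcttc
HIST1H2BK, chr6:27146859-27147108, minus strand: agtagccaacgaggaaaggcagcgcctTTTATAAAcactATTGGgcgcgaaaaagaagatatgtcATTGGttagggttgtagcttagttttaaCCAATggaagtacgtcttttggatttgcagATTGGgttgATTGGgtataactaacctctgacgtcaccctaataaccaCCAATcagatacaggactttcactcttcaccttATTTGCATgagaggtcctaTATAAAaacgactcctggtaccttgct
HIST2H2BE, chr1:149886683-149886932, minus strand: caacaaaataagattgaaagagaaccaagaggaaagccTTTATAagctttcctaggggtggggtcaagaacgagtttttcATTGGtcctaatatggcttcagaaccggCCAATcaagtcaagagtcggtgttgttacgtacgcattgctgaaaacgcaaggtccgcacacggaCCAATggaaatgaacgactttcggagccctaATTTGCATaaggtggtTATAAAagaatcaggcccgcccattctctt
HIST1H3E, chr6:26223928-26224177, plus strand: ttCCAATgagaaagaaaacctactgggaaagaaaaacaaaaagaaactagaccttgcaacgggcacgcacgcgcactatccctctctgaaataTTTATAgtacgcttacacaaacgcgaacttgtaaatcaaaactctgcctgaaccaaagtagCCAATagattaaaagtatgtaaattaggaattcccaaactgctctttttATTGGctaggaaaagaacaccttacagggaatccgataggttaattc
HIST4H4, chr12:14771132-14771381, minus strand: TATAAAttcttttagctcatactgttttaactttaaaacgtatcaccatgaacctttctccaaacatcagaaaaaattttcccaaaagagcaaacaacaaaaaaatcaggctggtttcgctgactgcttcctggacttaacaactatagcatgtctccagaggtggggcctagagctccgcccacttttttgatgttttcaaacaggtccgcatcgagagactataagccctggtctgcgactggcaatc
In the 300-base windows that also hold the first 50 bases of the gene, CCAAT was present in 26 of the 30 matched promoters (86.7%), against 34.6% of all 35116 promoters in the table. TATAAA was present in 18 (60.0%), against 11.5% of all promoters. ATTTGCAT was present in 14 (46.7%), against 1.77%; the 14 were 4 of 6 H2A and 10 of 13 H2B promoters, and none of the H1, H3 and H4 promoters. Of the 5 H4 promoters, 1 held CCAAT. Some H2A and H2B genes are transcribed away from each other and share most of their windows, as do HIST1H2AC and HIST1H2BC. Matches on either strand were counted for each gene, so a site in a shared stretch counts for both. The ATTTGCAT of each of the 4 H2A promoters is such a site, so the 14 promoters do not hold 14 separate sites. These matches describe letters in a window and were not tested against the responses below.

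Total counts were even, from 13514195 to 15131436 per library. The libraries labelled PC3 went against what is known of that line, since PC3 is described as having lost CTNNA1, the gene of alpha-catenin. CTNNA1 had 6003 to 8545 counts in the 6 libraries labelled PC3, against 5533 to 5932 in the 6 labelled DU145; where in this gene the reads fell was not analysed here. Of the 4 epithelial markers, EPCAM and CDH1 were near absent, with at most 2 and 10 counts in all 12 libraries, those labelled DU145 included. The keratin KRT8 had 238 to 307 counts in the libraries labelled PC3 and 25835 to 38812 in those labelled DU145. The 4 epithelial markers summed to 167 to 193 CPM (counts per 1000000 counts of the library) in vehicle PC3 and 196 to 226 CPM with pentamidine. In DU145 they summed to 3435 to 3584 CPM in vehicle and 2528 to 2581 CPM with pentamidine. The first vehicle library of PC3 stood apart from the other two of its group. The mean chi-square per gene was 5.99 and 7.32 between it and them and 3.65 between those, against 1.71 to 3.14 between libraries of the other groups. The counts of histone genes called with it are also given without it. The prostate luminal marker KLK3 had at most 2 counts in all 12 libraries. PC3 and DU145 below therefore name libraries by their labels, and the identity of neither line was settled here. Some histone genes of a class are alike in their coding sequence. How the counting placed reads that match several copies is not given in the sources used here, so the split of counts between genes of a class is uncertain.

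In vehicle, histone RNA was far less abundant in PC3 than in DU145, and HIST1H1C and HIST1H2BK differed most. The 32 genes took 0.00818% to 0.00875% of the counts of the vehicle PC3 libraries and 0.0622% to 0.0645% of those of the vehicle DU145 libraries. HIST1H1C, a somatic H1, stood at 8.21, 9.01 and 9.66 CPM in vehicle PC3 and at 194, 215 and 201 CPM in vehicle DU145 (CPM scaled by TMM from here on). These groups lay far apart, with a log2 difference (PC3 minus DU145) of -4.51 ± 0.07 (SE; edgeR quasi-likelihood test, adjusted p = 1.28e-26). HIST1H2BK, an H2B gene, stood at 14.8, 15.8 and 16.2 CPM in vehicle PC3 and at 200.0, 204 and 201 CPM in vehicle DU145, a log2 difference of -3.69 ± 0.07 (adjusted p = 8.49e-25). HIST1H4I, an H4 gene, had a log2 difference of -3.31 ± 0.12 (adjusted p = 3.70e-19). The other H1 gene tested, HIST1H1B, had a smaller one, -1.17 ± 0.46 (adjusted p = 0.0278). Of the 29 genes tested in a fit of all 12 samples, 25 were lower in vehicle PC3 at an adjusted p below 0.05 and none was higher, while 66.4% of all 15226 genes tested passed, with 33.2% lower and 33.2% higher. HIST1H2BF and HIST1H2BO, both among the 25, reached 10 counts in DU145 samples alone. The rule kept them through the line where they are higher, so their direction lends the count no support. Without the first vehicle library of PC3, 24 of 32 genes were lower. The share of all genes called without it is not given here. The median log2 difference was -1.79 over the 29 genes and 0.01 over all genes. The 4 genes that did not pass were HIST1H2AI (-0.88 ± 0.42, adjusted p = 0.0674), HIST1H2BH (-0.29 ± 0.18, adjusted p = 0.149), HIST1H3E (0.25 ± 0.25, adjusted p = 0.378) and HIST1H4E (0.52 ± 0.47, adjusted p = 0.339). In bulk RNA, fewer cells that make a transcript and less of it in each cell cannot be told apart. Nor can the line and its culture.

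Per kilobase of annotated exon, the order of the leading genes was the same in both lines for the first 3. HIST1H2BK came first with 40.9 CPM per kb in vehicle PC3 and 529 in vehicle DU145. HIST1H1C followed with 14.0 and 317 CPM per kb, and HIST1H2AC, an H2A gene, with 7.61 and 42.0. In vehicle PC3 the next were HIST1H2BD at 5.55 and HIST3H2A at 4.49 CPM per kb, and in vehicle DU145 they were HIST1H4I at 27.2 and HIST1H2BD at 19.3. The annotated exons of HIST1H2BK (381 bases) and HIST1H1C (642 bases) hold no untranslated sequence, so their levels per length rest on a short denominator.

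H1, H2A, H2B and H4 each had a leading gene. In vehicle, HIST1H1C held 94.2% of H1 counts in PC3 and 99.1% in DU145. HIST1H2BK held 43.5% and 71.2% of H2B counts, HIST1H2AC 52.6% and 72.2% of H2A counts, and HIST1H4I 41.8% and 63.6% of H4 counts. H3 had no such gene in both lines: HIST1H3H held 54.3% of H3 counts in DU145 but 26.1% in PC3, where it had the fewest counts of the 3 H3 genes in every vehicle library. H1 made up 11.3% of the counts of the 32 genes in vehicle PC3 and 31.4% in vehicle DU145, whereas H2B made up 42.4% and 43.4%. H1 therefore took a larger share of histone counts in DU145.

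The class sums moved in opposite directions in the lines, except for H1. In PC3 the summed level went from 84.2 ± 2.3 CPM in vehicle to 146 ± 6.2 CPM with pentamidine (SD, n = 3), a ratio of 1.74. In DU145 it went from 653 ± 11 to 442 ± 25 CPM (SD, n = 3), a ratio of 0.677. By class the ratios in PC3 were 0.885 for H1, 1.95 for H2A, 1.83 for H2B, 1.72 for H3 and 1.70 for H4. In DU145 they were 0.612 for H1, 0.827 for H2A, 0.680 for H2B, 0.829 for H3 and 0.610 for H4. The samples of the vehicle and pentamidine groups overlapped for H3 in DU145, where vehicle lay between 11.2 and 12.5 CPM and pentamidine between 8.15 and 11.9 CPM. In PC3 the H1 sums were at least 9.02 CPM in vehicle and at most 8.98 CPM with pentamidine, lower without overlap. These sums are a description and were given no test. With the leading gene of each class left out, the ratio for H2B in DU145 was 0.843 and that for H2A in DU145 was 0.947.

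**Figure D1:**
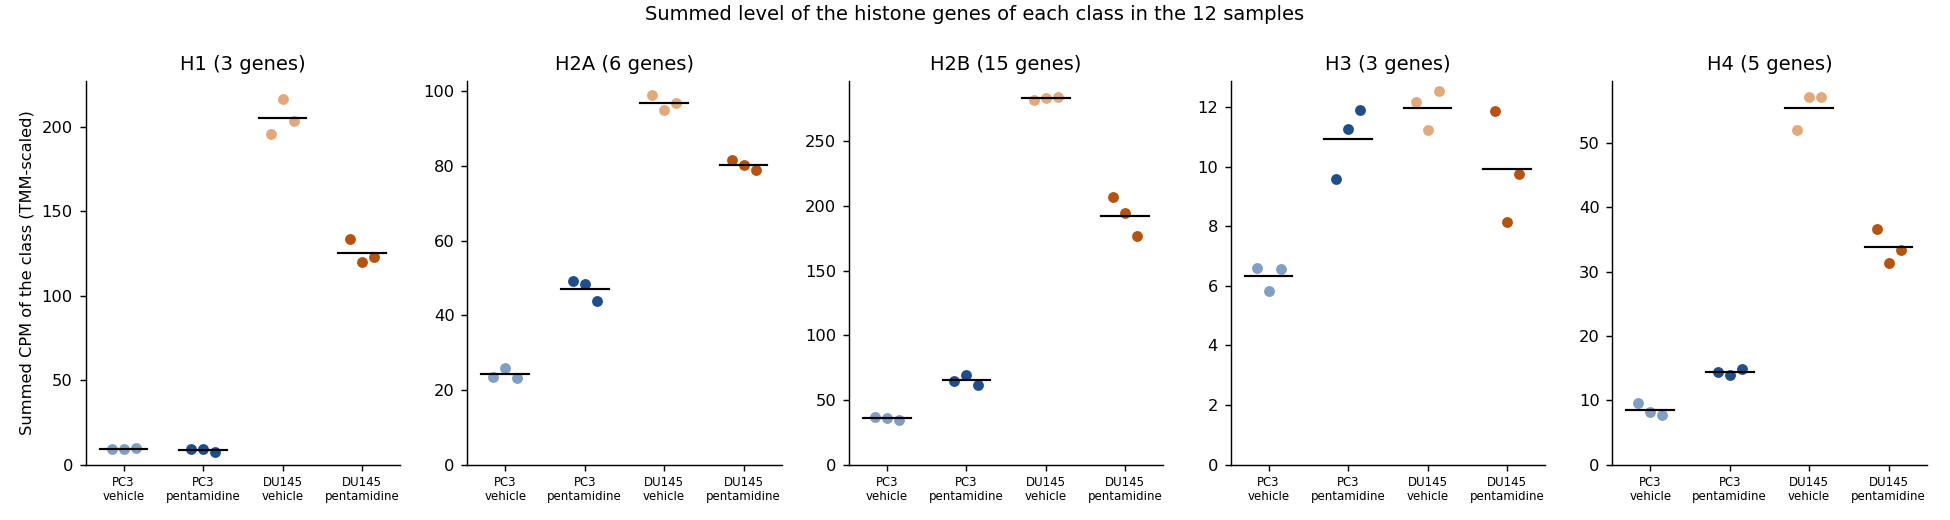
Summed TMM-scaled CPM (vertical axes, each from 0) of the histone genes of each class in the 4 groups (horizontal axis); points are samples and lines group means. H2A, H2B, H3 and H4 sums are higher with pentamidine in all PC3 samples, and H1, H2A, H2B and H4 sums are lower with pentamidine in all DU145 samples.

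With pentamidine, 9 histone genes rose in PC3 and none fell at an adjusted p below 0.05, among 24 tested. This count, 37.5% in either direction, is near the 43.4% of all 13861 genes tested that passed. It was the direction that differed from the rest of the table, in which 21.7% of genes rose and 21.7% fell. The genes that rose were HIST1H2AC and HIST1H2AG of H2A; HIST1H2BD, HIST1H2BK, HIST1H2BN and HIST2H2BE of H2B; HIST1H3E of H3; and HIST1H4H and HIST1H4I of H4. With an absolute log2 fold change above 1 as well, 5 genes remained, 20.8% of the 24, against 4.75% of all genes tested in either direction and 3.44% that rose. In 10 of the 24 genes every pentamidine sample lay above every vehicle sample, as in 26.1% of all genes tested. The median log2 fold change was 0.45 over the 24 genes and 0.00 over all genes. Without the first vehicle library of PC3, 13 of 26 genes tested rose, 8 passed the fold threshold as well, and the median was 0.70. The share of all genes called without that library is not given here, so these counts have no background beside them. The summed epithelial markers were also higher with pentamidine in PC3 without overlap, at 196 to 226 CPM against 167 to 193 CPM in vehicle. Most of this sum was the keratin KRT18, with 2125 to 2320 counts in vehicle PC3 and 2654 to 3085 with pentamidine. KRT8 was lower with pentamidine, with 286 to 307 counts in vehicle PC3 and 238 to 267 with pentamidine. EPCAM and CDH1 were near absent. The part of these markers in the histone values was not tested.

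HIST2H2BE, an H2B gene known for a polyadenylated mRNA, had the largest log2 fold change in PC3 among the histone genes tested. Its level was 2.31, 1.75 and 2.14 CPM in vehicle PC3 and 7.43, 6.40 and 6.28 CPM with pentamidine, with no overlap. The log2 fold change was 1.70 ± 0.19 (SE; edgeR, adjusted p = 1.40e-06). In DU145 it stood at 16.4, 15.6 and 17.3 CPM in vehicle and at 16.9, 18.9 and 18.3 CPM with pentamidine. The DU145 groups overlapped, and the log2 fold change there was 0.14 ± 0.09 (adjusted p = 0.265).

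HIST1H3E, an H3 gene, behaved alike in PC3. It went from 2.78, 1.88 and 2.14 CPM in vehicle to 5.47, 7.19 and 6.55 CPM, a log2 fold change of 1.50 ± 0.20 (edgeR, adjusted p = 1.14e-05). In DU145 its samples lay between 1.40 and 2.24 CPM in vehicle and between 1.74 and 2.22 CPM with pentamidine, which overlapped. Its stem-loop is the one with TCTC as the loop, shown above.

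HIST1H2AG, an H2A gene, stood at 4.48, 5.05 and 5.83 CPM in vehicle PC3 and at 12.6, 13.5 and 13.5 CPM with pentamidine. No samples overlapped and the log2 fold change was 1.37 ± 0.14 (edgeR, adjusted p = 3.48e-07). In DU145 the groups overlapped, with 7.83, 5.89 and 6.34 CPM in vehicle and 7.44, 5.09 and 7.51 CPM with pentamidine.

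HIST1H2BK and HIST1H2AC, the leading H2B and H2A genes, rose in PC3 and fell in DU145. HIST1H2BK went from 14.8, 15.8 and 16.2 CPM to 32.1, 36.3 and 30.5 CPM in PC3, a log2 fold change of 1.08 ± 0.09 (edgeR, adjusted p = 5.13e-08). In DU145 it went from 200.0, 204 and 201 CPM to 135, 124 and 111 CPM, a log2 fold change of -0.70 ± 0.04 (adjusted p = 1.03e-19). The groups did not overlap in either line, and the treated PC3 samples were still far below the treated DU145 samples. HIST1H2AC went from 13.4, 13.7 and 10.9 CPM to 28.2, 27.9 and 23.4 CPM in PC3, a log2 fold change of 1.06 ± 0.11 (adjusted p = 5.81e-07). In DU145 it went from 71.6, 67.6 and 70.9 CPM to 55.4, 55.9 and 52.8 CPM, a log2 fold change of -0.35 ± 0.05 (adjusted p = 2.44e-07).

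**Figure D2:**
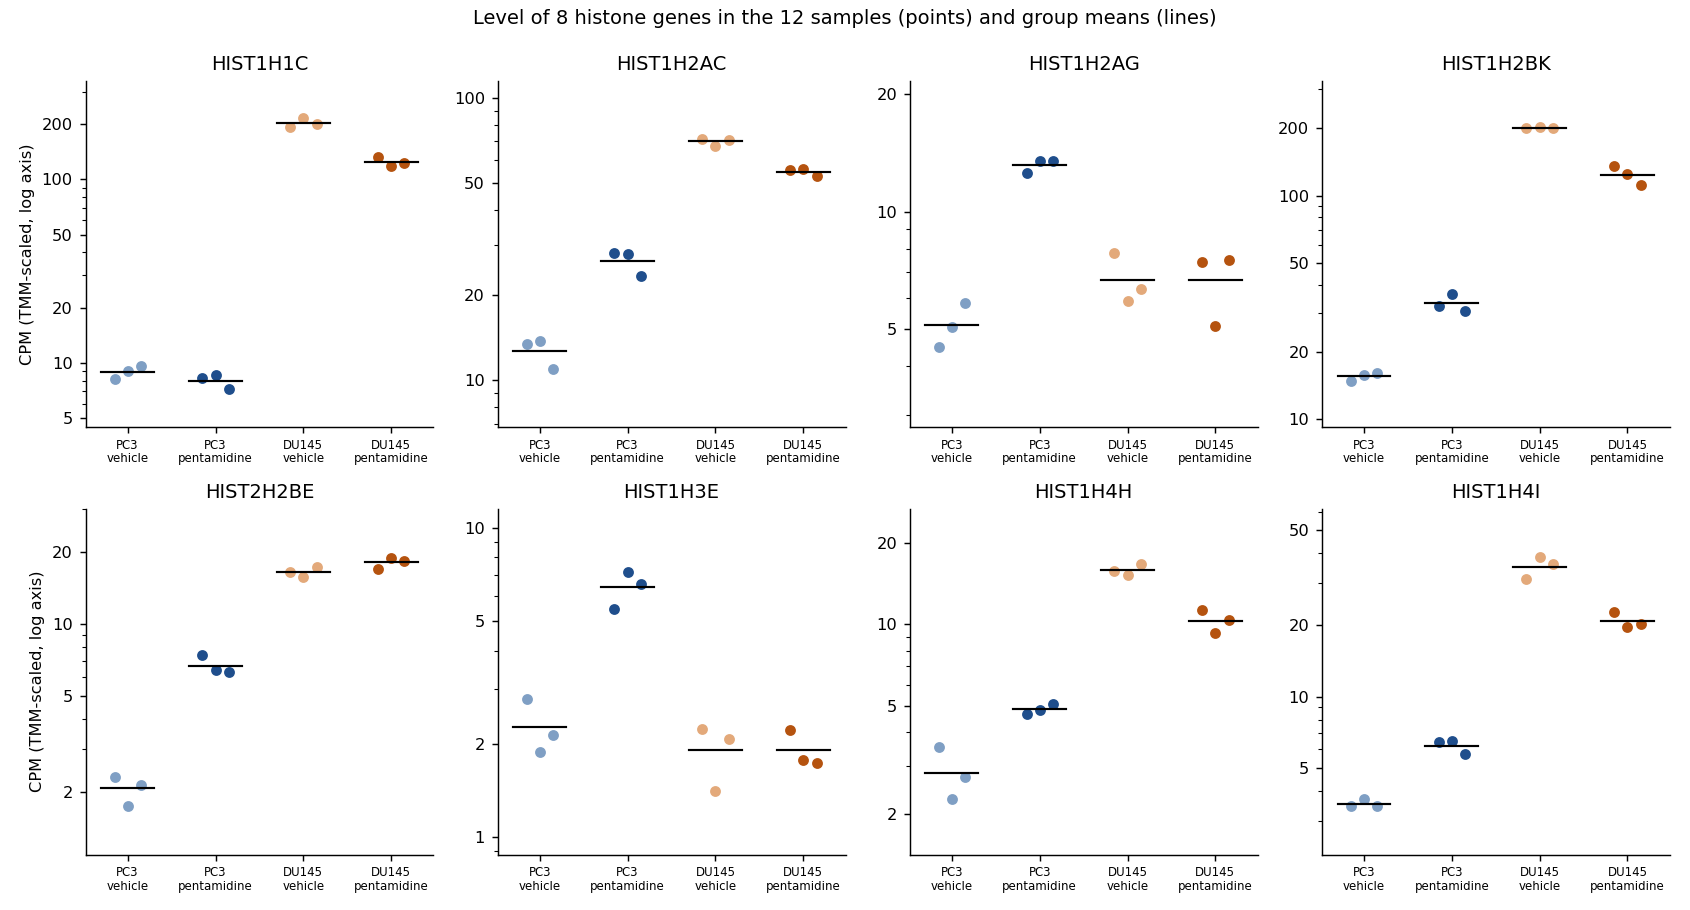
TMM-scaled CPM on log axes of 8 histone genes in the 4 groups; points are samples and lines group means. HIST1H2AC, HIST1H2BK, HIST1H4H and HIST1H4I are higher with pentamidine in PC3 and lower in DU145 with no overlap, HIST1H2AG, HIST2H2BE and HIST1H3E are higher in PC3 alone among the comparisons that passed, and HIST1H1C is lower in DU145.

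In DU145, 11 histone genes fell and none rose at an adjusted p below 0.05, among 28 tested. The share called in either direction, 39.3%, is near the 34.0% of all 14313 genes tested that passed, and the direction again differed from the table, in which 17.2% rose and 16.8% fell. The genes that fell were HIST1H1C; HIST1H2AC and HIST1H2AE of H2A; HIST1H2BC, HIST1H2BG, HIST1H2BJ and HIST1H2BK of H2B; HIST1H3G of H3; and HIST1H4H, HIST1H4I and HIST4H4 of H4. None had an absolute log2 fold change above 1, against 2.03% of all genes tested. Leaving out the first pentamidine library gave 2 such genes, and leaving out the third pentamidine or the second vehicle library gave 1. In 12 of the 28 genes every pentamidine sample lay below every vehicle sample, as in 22.1% of all genes tested. The median log2 fold change was -0.39 over the 28 genes and 0.01 over all genes. The summed epithelial markers were also lower with pentamidine in DU145, at 2528 to 2581 CPM against 3435 to 3584 CPM in vehicle, and their part in the histone values was not tested.

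HIST1H1C carried the fall of H1. It went from 194, 215 and 201 CPM in vehicle DU145 to 132, 118 and 122 CPM with pentamidine, a log2 fold change of -0.71 ± 0.04 (edgeR, adjusted p = 1.34e-20). In PC3 it went from 8.21, 9.01 and 9.66 to 8.24, 8.54 and 7.16 CPM, which overlapped, with a log2 fold change of -0.16 ± 0.13 (adjusted p = 0.357). It was the gene of the highest CPM that did not follow the H2A, H2B and H4 leaders in PC3. HIST1H1B and HIST1H1E, the other H1 genes kept, had 1 to 19 and 0 to 14 counts per library and were too low for a test in PC3. HIST1H1B had a log2 fold change of -0.83 ± 0.41 in DU145 (adjusted p = 0.116).

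Of the 5 H4 genes, 3 had enough counts for a test in DU145 and these fell, beside 16.8% of all genes tested. HIST1H4E and HIST1H4K were not tested there; HIST1H4E stood at 0.426 CPM in vehicle and 0.534 CPM with pentamidine (means, n = 3), and its groups overlapped. HIST1H4I went from 31.2, 38.5 and 35.9 CPM to 22.7, 19.7 and 20.2 CPM, a log2 fold change of -0.75 ± 0.08 (edgeR, adjusted p = 3.99e-11). HIST1H4H went from 15.7, 15.1 and 16.7 CPM to 11.3, 9.31 and 10.4 CPM, a log2 fold change of -0.62 ± 0.11 (adjusted p = 8.44e-06). HIST4H4, the histone gene kept from chromosome 12, went from 3.95, 2.73 and 3.51 CPM to 1.86, 1.36 and 2.02 CPM, a log2 fold change of -0.95 ± 0.25 (adjusted p = 0.00188). Each had vehicle and pentamidine groups that did not overlap. In PC3, HIST1H4I went from 3.46, 3.69 and 3.47 to 6.42, 6.48 and 5.74 CPM (log2 fold change 0.81 ± 0.16, adjusted p = 6.85e-04). HIST1H4H went from 3.53, 2.27 and 2.73 to 4.66, 4.84 and 5.07 CPM (0.78 ± 0.20, adjusted p = 0.00428). The PC3 groups of HIST4H4 overlapped, with a log2 fold change of 0.44 ± 0.35 (adjusted p = 0.337).

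Of the other H2B genes, HIST1H2BJ had one of the larger falls in DU145. It went from 16.3, 14.0 and 14.8 CPM to 10.2, 8.15 and 5.77 CPM, a log2 fold change of -0.90 ± 0.13 (edgeR, adjusted p = 1.42e-07), and in PC3 it had 0.45 ± 0.23 (adjusted p = 0.124). HIST1H2BC went from 6.86, 10.8 and 9.50 CPM to 5.65, 6.25 and 5.49 CPM in DU145 (-0.64 ± 0.15, adjusted p = 6.16e-04), and from 1.49, 1.04 and 1.25 to 2.63, 1.49 and 2.16 CPM in PC3. Its PC3 log2 fold change, 0.74 ± 0.30, missed the threshold (adjusted p = 0.0541). HIST1H2BD rose in PC3, from 4.48, 5.96 and 4.06 CPM to 8.65, 9.18 and 7.50 CPM (0.80 ± 0.17, adjusted p = 9.10e-04). In DU145 its groups overlapped, at 16.8 ± 0.99 and 17.3 ± 0.48 CPM (SD, n = 3). HIST1H2BN passed narrowly in PC3 (0.81 ± 0.31, adjusted p = 0.0459), and its exons overlap those of HIST1H2AK and HIST1H2AL, so its counts are uncertain. Leaving out any of 5 of the 6 PC3 libraries ended that call; the exception was the first vehicle library.

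Of the other H2A and H3 genes, HIST3H2A, an H2A gene outside the large cluster of chromosome 6, had log2 fold changes of 0.30 ± 0.17 in PC3 (edgeR, adjusted p = 0.175) and 0.11 ± 0.11 in DU145 (adjusted p = 0.497). HIST1H3H, the leading H3 gene of DU145, had 0.23 ± 0.28 in PC3 (adjusted p = 0.536) and -0.21 ± 0.16 in DU145 (adjusted p = 0.337). HIST1H3G went from 3.58, 3.93 and 3.24 to 2.93, 2.24 and 2.09 CPM in DU145, with no overlap (-0.56 ± 0.22, adjusted p = 0.0461). That call was lost without any 1 of 5 of the 6 DU145 libraries, the exception being the first pentamidine library.

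Whether the responses differed between the lines was tested as an interaction in a fit of all 12 samples. For 14 of 29 histone genes the response in PC3 was higher than that in DU145 at an adjusted p below 0.05, and for none was it lower. Of all 15226 genes tested, 20.4% passed, 10.2% with a higher response in PC3 and 10.3% with a lower one. The 14 genes were 1 of H1, 2 of H2A, 7 of H2B, 1 of H3 and 3 of H4, and in 11 of them the log2 difference of responses was above 1, as in 1.71% of all genes in this direction and 2.62% in either. HIST1H2BK had the largest of these (1.78 ± 0.10, adjusted p = 3.46e-13), followed by HIST2H2BE (1.57 ± 0.19, adjusted p = 6.45e-07) and HIST1H4I (1.56 ± 0.17, adjusted p = 1.18e-07). HIST1H1C had the smallest (0.54 ± 0.12, adjusted p = 0.00179). Without the first vehicle library of PC3, 15 of 32 genes had a higher response in PC3 and none a lower one. The share of all genes called without it is not given here. The median log2 difference of responses was 0.93 over the 29 genes and -0.01 over all genes. The vehicle comparison between the lines uses the same vehicle libraries as these responses, so the lower vehicle level in PC3 and the higher response there are not independent values.

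**Figure D3:**
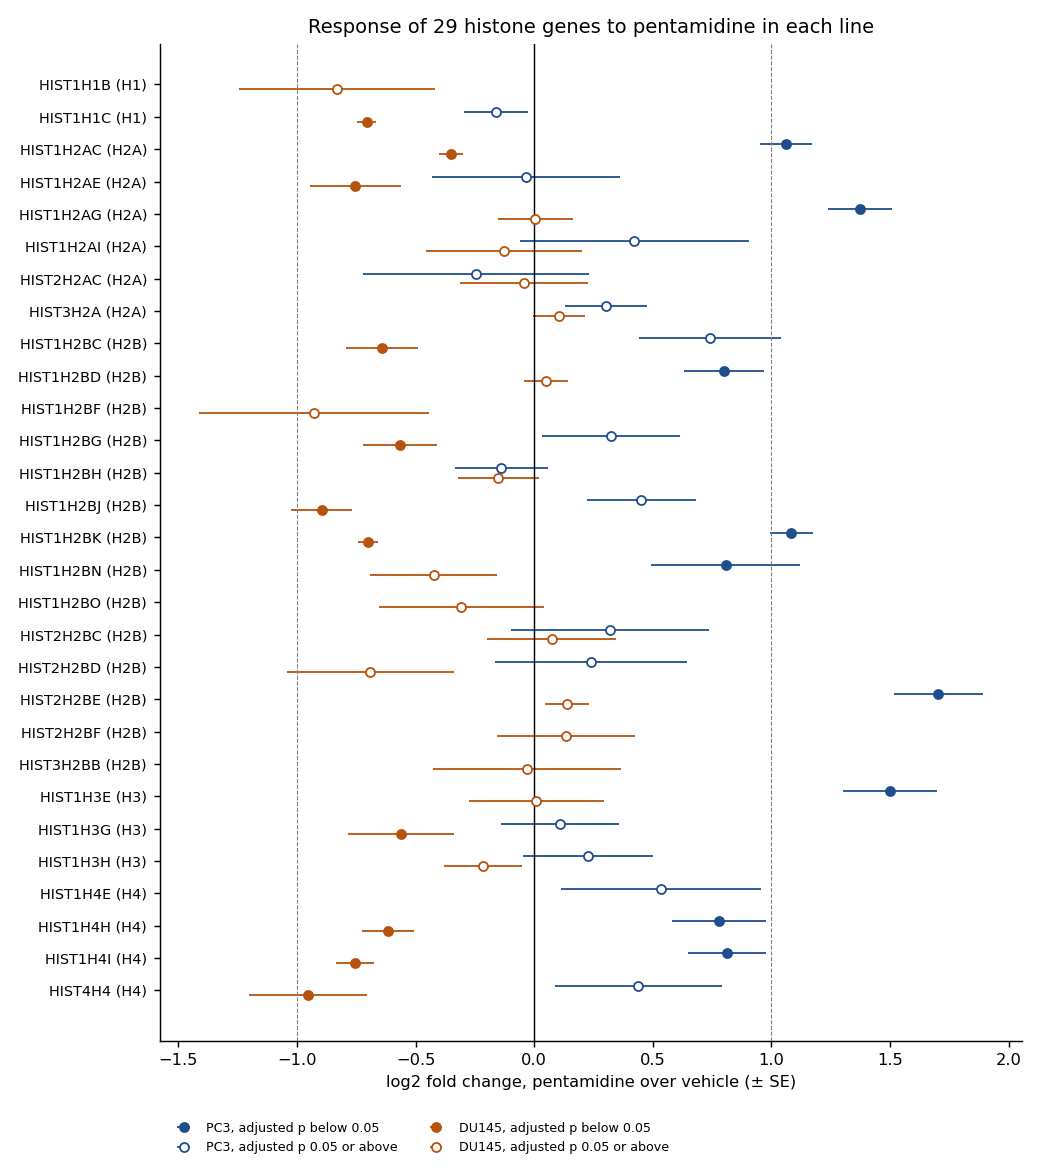
log2 fold change of pentamidine over vehicle with its SE (horizontal axis) for the 29 histone genes of the fit of all 12 samples (vertical axis, by class), from the fit of each line; filled points passed an adjusted p of 0.05, and a missing point was not tested in that line. The 9 filled points of PC3 are above 0 and the 11 filled points of DU145 are below 0.

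Across the 23 genes tested in both lines, 4 rose in PC3 and fell in DU145 (HIST1H2AC, HIST1H2BK, HIST1H4H and HIST1H4I). Another 5 rose in PC3 without a call in DU145, 7 fell in DU145 without a call in PC3, and 7 had no call in either line. HIST1H2BH was among the last, at 4.41, 4.99 and 3.61 CPM in vehicle PC3 and 3.24, 4.41 and 4.19 CPM with pentamidine, and at 4.85, 4.91 and 6.20 then 4.43, 4.89 and 5.01 CPM in DU145. It is named after its values were seen, as a gene whose level differed little among the 4 groups. Genes with too few counts for a test were 8 in PC3 and 4 in DU145; HIST1H1E, HIST1H2BE and HIST1H4K were tested in neither. HIST1H4K had 6, 1 and 4 counts in vehicle PC3 and 10, 13 and 10 with pentamidine. Of the 32 genes, 28 reached 10 counts in samples of both lines, 3 in DU145 samples alone and 1, HIST1H4E, in PC3 samples alone.

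The genes share position and structure beyond their names. In all, 24 lie on chromosome 6, 7 on chromosome 1 and 1 on chromosome 12. HIST1H2BK, for example, is at chr6:27146418-27146798, HIST1H1C at chr6:26055787-26056428 and HIST2H2BE at chr1:149884459-149886652, all on the minus strand (GRCh38, coordinates of the deposited table). An H2A and an H2B gene are transcribed away from each other from start sites 218 to 322 bases apart in 5 pairs. The partners of a pair did not always respond alike. HIST2H2BE rose in PC3 with 1.70, whereas its partner HIST2H2AC had a log2 fold change of -0.25 ± 0.48 (edgeR, adjusted p = 0.706). HIST1H2AG rose in PC3 and had no call in DU145, and its partner HIST1H2BJ had no call in PC3 and fell in DU145. HIST1H2AC and HIST1H2BC both fell in DU145, as did HIST1H2AE and HIST1H2BG. The difference between partners was not tested.

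Counts by structure are given beside the 21.7% of all genes that rose in PC3 and the 16.8% that fell in DU145. Of the genes with over 1000 bases of annotated exon, 7 of 14 tested rose in PC3 and 6 of 16 fell in DU145. Of the shorter genes, 2 of 9 rose in PC3 and 5 of 11 fell in DU145. Of the genes with a poly(A) signal at an annotated end, 7 of 15 rose in PC3 and 5 of 15 fell in DU145, and of those without it 2 of 8 and 6 of 12. Of the genes with ATTTGCAT in the promoter window, 4 of 10 rose in PC3 and 6 of 13 fell in DU145, and of those without it 5 of 12 and 5 of 13. None of these differences was tested, and long annotated genes also have more room for reads. The annotated exons of several genes, HIST1H2BK and HIST1H1C among them, stop with the coding sequence, so their 3′ ends were not read. These genes count as shorter and as without a poly(A) signal by that annotation alone. Genes transcribed away from each other that share an ATTTGCAT site count separately in that split. The splits by poly(A) signal and by ATTTGCAT were chosen after the responses were seen.

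The machinery around histone supply was read from lists of genes. In PC3, 25 of 25 genes of S phase and replication fell and none rose, beside 21.7% of all genes in each direction, and their median log2 fold change was -0.69. The 3 past the fold threshold were FEN1, the flap endonuclease (-1.25 ± 0.06, edgeR, adjusted p = 5.22e-11), GINS1, a subunit of the replicative helicase (-1.14 ± 0.07, adjusted p = 1.11e-09), and MCM4, another (-1.11 ± 0.05, adjusted p = 5.06e-12). In DU145, 10 of the 25 fell and 2 (MCM5 and CDT1) rose, beside 16.8% and 17.2% of all genes. Their median there was -0.09. FEN1 had -0.41 ± 0.04 there (adjusted p = 1.02e-13), GINS1 -0.32 ± 0.05 (adjusted p = 3.42e-07) and MCM4 -0.23 ± 0.03 (adjusted p = 2.85e-08). The rise of histone RNA in PC3 thus stood beside lower RNA of replication genes; what part either has in the other was not tested.

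Of 6 genes for histone mRNA transcription, 5 fell in PC3 (NPAT, POU2F1, CDK2, CCNE1 and CCNE2), beside 21.7% of all genes, and HINFP had no call. In DU145, 4 of the 6 fell (the same without CCNE2), beside 16.8% of all genes. NPAT, the coactivator of histone genes, went from 65.2 to 45.0 CPM in PC3 (log2 fold change -0.53 ± 0.08, edgeR, adjusted p = 2.13e-05) and from 48.1 to 40.9 CPM in DU145 (-0.23 ± 0.06, adjusted p = 0.00228). Of 20 genes for 3′ processing and decay, 10 fell in PC3 and none rose, beside 21.7% of all genes in each direction. In DU145, 4 fell (LSM11, SNRPD3, SNRPG and CSTF2) and 3 rose (SNRPE, SYMPK and MIF4GD). These DU145 counts are near the 16.8% of all genes that fell and the 17.2% that rose. SLBP, which binds the stem-loop shown above, went from 141 to 81.6 CPM in PC3 (-0.78 ± 0.08, adjusted p = 5.69e-07) and had -0.06 ± 0.04 in DU145 (adjusted p = 0.242); the responses differed (interaction -0.72 ± 0.10, adjusted p = 2.33e-06). CASP8AP2, a partner in histone mRNA 3′ processing, fell in PC3 (-0.47 ± 0.07, adjusted p = 1.61e-05) and had 0.01 ± 0.06 in DU145 (adjusted p = 0.897). Of 21 histone chaperones and their partners tested, 14 fell and 2 (ASF1A and NAP1L1) rose in PC3, beside 21.7% of all genes each way. In DU145, 5 fell (CHAF1A, CHAF1B, HAT1, NAP1L4 and MMS22L) and 2 rose (NASP and NAP1L1), beside 16.8% and 17.2% of all genes. The list genes named without values were picked out after the fit.

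The histone variants and other histone genes outside the HIST clusters moved in both directions. Most of them are known for polyadenylated mRNAs, and H2AFX also gives an mRNA that ends in the stem-loop. Of 12, 2 (H1F0 and H2AFY2) rose and 5 (H2AFX, H2AFY, H2AFZ, H3F3A and CENPA) fell in PC3, beside 21.7% of all genes each way. In DU145 5 (H2AFV, H2AFY2, H2AFZ, H3F3A and CENPA) rose and 3 (H1F0, H2AFY and H3F3B) fell, beside 17.2% and 16.8% of all genes. H2AFX, the variant phosphorylated at DNA breaks, went from 234 to 139 CPM in PC3 (log2 fold change -0.74 ± 0.07, edgeR, adjusted p = 2.16e-07) and had 0.01 ± 0.04 in DU145 (adjusted p = 0.850). H2AFZ fell in PC3 (-0.17 ± 0.06, adjusted p = 0.0321) and rose in DU145 (0.18 ± 0.04, adjusted p = 8.22e-05). H1F0, an H1 variant of resting cells named after its values were seen, rose in PC3 (0.74 ± 0.05, adjusted p = 8.85e-09) and fell in DU145 (-0.14 ± 0.03, adjusted p = 7.23e-04).

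**Figure D4:**
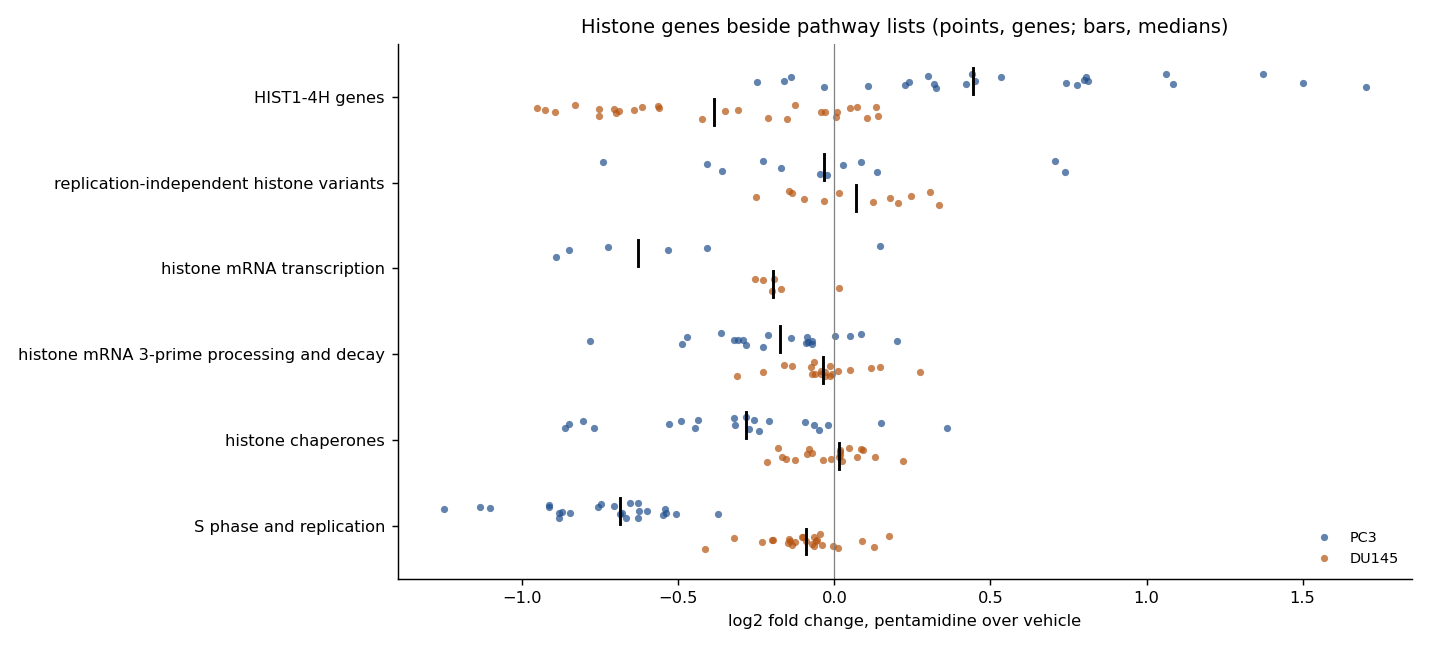
log2 fold change of pentamidine over vehicle (horizontal axis) in PC3 and DU145 for the histone genes and 5 lists; points are genes tested and bars medians. The PC3 median is 0.45 for the histone genes and -0.69 for S phase and replication, and the DU145 medians are -0.39 and -0.09.

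Carry-over of RNA without a poly(A) tail was read from 13 other such RNAs found of 22 listed. Their summed level was 18.3 to 37.2 CPM in vehicle PC3 and 13.5 to 22.5 CPM with pentamidine, which overlapped. It was 18.3 to 22.0 CPM in vehicle DU145 and 14.9 to 16.4 CPM with pentamidine, which did not overlap. Of the 3 tested, 1 (SNORD17) fell in each line, beside 21.7% of all genes in PC3 and 16.8% in DU145. Its fall was 0.96 in PC3 and 0.83 in DU145 on the log2 scale. Nearly all counts of the sum were of RN7SL2, SNORD17 and SNORA73B. In DU145, SNORD17 had 149 to 182 counts in vehicle and 87 to 97 with pentamidine. RN7SL2 had 35 to 62 and 58 to 102 counts there, and SNORA73B 40 to 59 and 44 to 54. In PC3 the highest vehicle sum was that of the first library, with 323 RN7SL2 counts against 55 and 98 in the other vehicle libraries. The sum thus rests on few RNAs and does not measure carry-over at large. Its part in the histone values was not tested.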

How the data were processed

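The authors aligned paired-end reads of oligo(dT)-selected RNA with HISAT2 2.1.0 to GRCh38 and tested with DESeq 1.18.1; the counting program, annotation and strand setting are not given in the sources used here. The deposited counts per gene were used as they stand. A second deposited table, named for FPKM, and the authors' fold changes and p-values were not used. Genes were filtered with filterByExpr (minimum count 10), scaled by TMM and tested in each line with the quasi-likelihood test of edgeR 4.0.16 in R 4.3.3, with Benjamini-Hochberg adjustment over all genes tested. The interaction and the vehicle comparison came from a fit of all 12 samples. DESeq2 1.42.0 and other settings were alternatives. In simulated data the test recovered 93.8% (PC3) and 92.3% (DU145) of genes changed by 1 on the log2 scale, and 57.6% and 49.3% of those changed by 0.5. The changed genes were drawn at random from all genes tested, and every gene was given the same dispersion. These shares therefore do not measure recovery for histone genes of few counts. Total counts were 13514195 to 15131436 per library. Genes named with values were those past an absolute log2 fold change of 1 and an adjusted p of 0.05 in a line or in the interaction, the 3 of highest mean CPM in each class, SLBP, NPAT, CASP8AP2, H2AFX, H2AFZ and list genes past both thresholds. The histone genes and the lists were chosen with earlier results of these data known. Same-numbered samples deviated together with correlations from -0.121 to 0.0388 over 6 pairs, so the numbers were not used as pairs. Some marker genes are not reported here.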

Additional observations from a re-analysis of the deposited data

Results flagged for a closer look

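For 14 histone genes the response to pentamidine differed between the lines, by the interaction test in edgeR with Benjamini-Hochberg adjustment (log2 response in PC3 minus that in DU145). The H1 gene HIST1H1C differed by 0.54 (adjusted p = 0.00179). Of H2A, HIST1H2AC differed by 1.41 (adjusted p = 3.58e-10) and HIST1H2AG by 1.37 (adjusted p = 2.89e-05). Of H2B, HIST1H2BK differed by 1.78 (adjusted p = 3.46e-13), HIST2H2BE by 1.57 (adjusted p = 6.45e-07), HIST1H2BC by 1.38 (adjusted p = 0.00299) and HIST1H2BJ by 1.35 (adjusted p = 7.76e-04). HIST1H2BN differed by 1.23 (adjusted p = 0.0325), HIST1H2BG by 0.89 (adjusted p = 0.0426) and HIST1H2BD by 0.75 (adjusted p = 0.00281). HIST1H3E of H3 differed by 1.49 (adjusted p = 0.00149). Of H4, HIST1H4I differed by 1.56 (adjusted p = 1.18e-07), HIST1H4H by 1.39 (adjusted p = 1.38e-05) and HIST4H4 by 1.39 (adjusted p = 0.0205). The line and its culture cannot be told apart. With 3 samples a group, no screen of single values within a group was made.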

How the results depend on the processing

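Over the alternatives that kept all libraries, 8 to 11 histone genes rose in PC3, 10 or 11 fell in DU145 and 12 to 14 passed the interaction. With 10 or more counts required in every sample, 18 genes were left for the vehicle comparison, and 16 of them were lower in vehicle PC3. The PC3 median log2 fold change under this filter was 0.77. The number of histone genes tested differed between the filters, and the shares of all genes called under these alternatives are not given here. Leaving out 1 library gave PC3 medians from 0.40 to 0.70, with the highest without the first vehicle library. It gave 5 to 8 genes past the fold threshold in PC3 and 0 to 2 in DU145; the 8 came without the first PC3 vehicle library, the 2 without the first DU145 pentamidine library, and 1 each without the second DU145 vehicle or the third DU145 pentamidine library. The shares of all genes called with 1 library left out are not given here. The H2A ratio in DU145 was 0.859 by library size alone and 0.947 without HIST1H2AC. Without HIST1H2BK the H2B ratio was 1.61 in PC3 and 0.843 in DU145. Log2 fold changes near 0 changed sign: HIST1H2AG in DU145 had -0.0056 with DESeq2, -0.00020 with RLE scaling, -0.0040 with no filter and -0.00024 in the fit of all samples, and -0.0941 to 0.163 with 1 library left out. HIST1H3E in DU145 had -0.00037 with DESeq2 and -0.17 to 0.13 with 1 library left out, and HIST1H3G in PC3 had -0.0433 to 0.27. The cause was not tested.

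With the replicate number as a block, 8 of 24 genes rose in PC3 and 11 of 28 fell in DU145, and 5 and 0 passed the fold threshold. Of 29 genes, 14 passed the interaction and 25 were lower in vehicle PC3. The shares of all genes called under the block are not given here. HIST1H2BN lost its PC3 call under the block (adjusted p = 0.0549), and also with DESeq2 (adjusted p = 0.149) and library size alone (adjusted p = 0.0516). HIST1H3G lost its DU145 call with DESeq2 (adjusted p = 0.156), library size alone (adjusted p = 0.0703), no filter (adjusted p = 0.0594) and the fit of all samples (adjusted p = 0.0654). Genes of a few counts per library limit what a test of 3 against 3 can call.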
